A study of Mus musculus with 11 samples.

Results

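From the 1907 names in each count table, 10 mature miRNAs listed as lying in introns of neuronal genes were followed in mouse cortex after stroke. They were selected by name, as miRNAs whose hairpins lie in introns of genes expressed in neurons, and the list was drawn up when differences between the groups of these libraries were already known. Their pMCAO-to-sham differences are therefore given as a description, without p-values. All 10 had at least 10 counts in every library and passed the filter on low counts, which left 479 miRNAs.

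Small RNA was sequenced from male Balb/cOlaHsd mice aged 3 months at 3 days after surgery. One group of 6 mice had a sham operation (sham; cortex). The other group of 5 mice had permanent middle cerebral artery occlusion, a stroke model in which the main cortical artery stays closed (pMCAO; peri-ischemic cortex, the tissue around the ischemic core). The names of the count tables add a vehicle to both groups, whose nature and dosing the sources used here do not give, and the brains were perfused before dissection according to the methods. The methods call the tissue of both groups peri-ischemic, whereas the labels give plain cortex for sham mice.

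An intronic miRNA can be transcribed as part of its host gene. The hairpin is cut out of the primary transcript, and Dicer then releases a duplex whose arms, 5p and 3p, can each be loaded into Argonaute. Bases 2 to 8 of the mature miRNA, the seed, direct it to matching sites in target mRNAs. Because host and miRNA can share a promoter, the miRNAs of neuronal hosts are commonly enriched in neurons, and miR-128 in particular is among the most abundant miRNAs of adult brain. The host mRNAs themselves were not measured here, so the neuronal origin rests on general knowledge. The annotation gives only the position of the hairpins in the hosts.

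The 10 mature sequences are shown from 5′ to 3′ with the seed in capitals, because the seed tells which of them could share targets. They are the RefSeq sequences on GRCm38.p6, and all 10 names were matched. The prefix mmu, for mouse, is left out after this.
mmu-miR-582-5p: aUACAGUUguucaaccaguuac
mmu-miR-582-3p: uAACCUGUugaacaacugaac
mmu-miR-139-5p: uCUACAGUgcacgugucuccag
mmu-miR-139-3p: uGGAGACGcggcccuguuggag
mmu-miR-153-3p: uUGCAUAGucacaaaagugauc
mmu-miR-128-3p: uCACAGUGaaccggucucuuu
mmu-miR-326-3p: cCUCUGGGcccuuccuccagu
mmu-miR-708-5p: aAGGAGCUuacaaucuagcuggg
mmu-miR-488-3p: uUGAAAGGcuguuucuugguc
mmu-miR-149-5p: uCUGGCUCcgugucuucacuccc

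The 10 miRNAs carry 10 different seeds, so they do not form a seed family. The closest pair is miR-582-5p and miR-139-5p, whose seeds share the 6-base run UACAGU at positions shifted by 1 base. The 5-base run ACAGU is also in the seed of miR-128-3p. Mature lengths are 21 to 23 bases and GC contents 36.4 to 68.2%. Over the 1623 names of the count table with a RefSeq mature sequence, 8 of the 10 shared their seed with no other name. The exceptions were miR-326-3p, which shares CUCUGGG with miR-330-5p, and miR-708-5p, which shares AGGAGCU with miR-28a-5p. These partners are shown for the same reason.
miR-330-5p: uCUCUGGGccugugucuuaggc
miR-28a-5p: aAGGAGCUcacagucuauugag

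The label was checked against the GENCODE vM21 annotation of GRCm38, the assembly also called mm10. All 9 hairpins lay in an intron of the named host, on its strand, and touched no exon of it. Mir582 (chr13:109324744-109324824, plus strand) is in intron 3 of Pde4d, a cAMP phosphodiesterase gene, and Mir139 (chr7:101475376-101475443, plus) is in intron 2 of Pde2a, which encodes another cyclic nucleotide phosphodiesterase. Mir153 (chr12:117250817-117250885, plus) is in intron 19 of Ptprn2, a phosphatase-like protein of dense-core vesicles. The mature miR-128-3p has a pair of sources. Mir128-1 (chr1:128202361-128202430, plus) is in intron 19 of R3hdm1, and Mir128-2 (chr9:112118636-112118711, minus) is in intron 19 of Arpp21, a cAMP-regulated phosphoprotein. Mir326 (chr7:99552269-99552363, plus) is in intron 1 of Arrb1, which encodes β-arrestin 1, an adaptor of G protein-coupled receptors.

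The remaining hosts encode cell-surface proteins. The mature arms of Mir708 (chr7:96249450-96249517, plus) lie in intron 1 of Tenm4, a teneurin, and Mir488 (chr1:158505625-158505733, plus) lies 155 bases into intron 5 of Astn1, which takes part in neuron migration along glia. Mir149 (chr1:92850378-92850443, plus) is in intron 1 of Gpc1, a heparan sulphate proteoglycan. Mir708, Mir326 and Mir139 lie within 5.23 Mb of each other on chromosome 7. The host introns span from 4.38 kb in Astn1 to 707.7 kb in Pde4d, and introns are numbered in the direction of transcription of the longest principal transcript that contains the hairpin.

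Total counts ran from 1429037 to 2319810 in sham and from 744877 to 1411620 in pMCAO libraries, so the sham libraries were the 6 deepest, and depth and surgery cannot be told apart by library. Levels below are in CPM, which are counts scaled to equal library totals after TMM normalization, and 3 counts came to between 1.5 and 3.55 CPM. Means are given ± SD over n = 6 sham or n = 5 pMCAO libraries. The neuron-enriched miR-124-3p was present at 209810 ± 22259 CPM in sham and 168630 ± 12682 CPM in pMCAO tissue, as a check of the labelled tissue. All 25 same-group library pairs differed by more than sampling noise. pMCAO replicate 5 stood apart from its group for miR-326-3p and miR-139-5p, and values without it are given beside these.

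In sham cortex the 10 miRNAs took 6.68 to 11.3% of a library's counts, and miR-128-3p alone made up 76.8 to 87.7% of that share. By mean CPM, miR-128-3p ranked 2 among all 1907 names. Next came miR-139-5p at rank 30, miR-149-5p at 56, miR-708-5p at 62, miR-326-3p at 75, miR-582-5p at 110 and miR-153-3p at 130. The least abundant were miR-582-3p at rank 179, miR-139-3p at 263 and miR-488-3p at 349. The list thus covers the range from 86320 ± 20558 CPM for miR-128-3p to 29.4 ± 7.75 CPM for miR-488-3p. Mature miRNAs are of nearly the same length, so these levels need no length correction, but ligation and counting can favour some sequences.

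**Figure D1:**
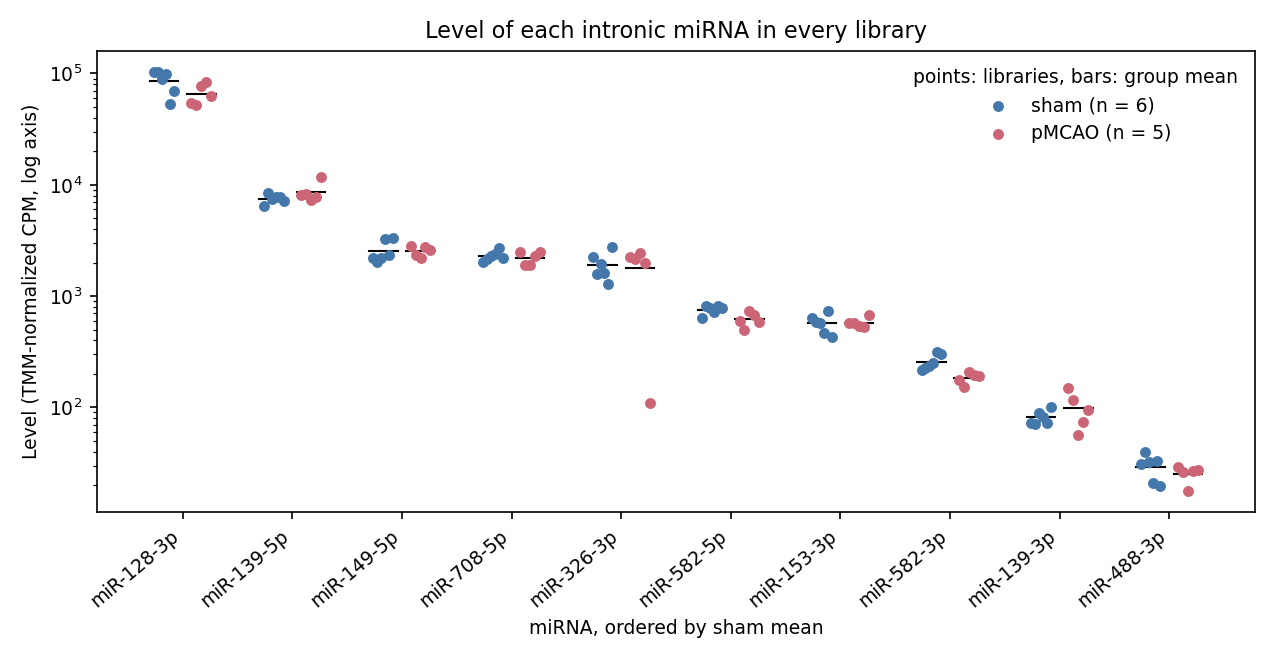
Level of each of the 10 miRNAs in TMM-normalized CPM (log axis) in every library, ordered by the sham mean; points are single libraries (blue, 6 sham; red, 5 pMCAO) and black bars are group means. The levels run from 86320 CPM for miR-128-3p to 29.4 CPM for miR-488-3p in sham, and the single point far below its group is miR-326-3p in pMCAO replicate 5, at 110 CPM.

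The order of the levels was compared within each sham library, which removes the scaling. The order itself was taken from the mean levels of these same libraries and was not set beforehand. Among the 9 pairs of neighbours in the order, 6 stood the same way round in all 6 sham libraries. Each of these 6 had p = 0.03125 in an exact two-sided sign-flip permutation test on log2 ratios, with an adjusted p of 0.0469. The adjustment was over the 9 pairs. This p is the smallest that 6 libraries allow, and any pair in the same order in all 6 gets it. It therefore adds nothing to that count. The largest step was between miR-128-3p and miR-139-5p, a mean ratio of 11.3-fold (log2 ratio 3.50 ± 0.42).

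The other steps, all with this same p, were smaller. miR-139-5p exceeded miR-149-5p by 2.97-fold and miR-326-3p exceeded miR-582-5p by 2.45-fold. miR-153-3p exceeded miR-582-3p by 2.20-fold, miR-582-3p exceeded miR-139-3p by 3.16-fold, and miR-139-3p exceeded miR-488-3p by 2.80-fold. In the middle of the order, 3 pairs of neighbours did not stand the same way round in every library and did not pass the test. The log2 ratio of miR-149-5p to miR-708-5p was 0.13 ± 0.32, and that of miR-708-5p to miR-326-3p was 0.30 ± 0.50. For miR-582-5p over miR-153-3p it was 0.43 ± 0.31, positive in 5 of 6 libraries (exact sign-flip test, two-sided, adjusted p = 0.0804).

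In pMCAO libraries the order held in all 5 for 6 of the 9 pairs, although not for the same 6. miR-149-5p was above miR-708-5p in 5 of 5, while miR-326-3p was above miR-582-5p in 4 of 5, the exception being replicate 5.

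Differences are given as the log2 fold change of pMCAO over sham (log2FC) with its standard error (SE). It was below 0 for 7 of the 10 miRNAs and above 0 for 3. Below 0 lay 49.7% of all 479 miRNAs. The values ranged from -0.48 for miR-582-3p to 0.26 for miR-139-3p with a median of -0.08, against a median of 0.00147 for all 479. The quasi-likelihood test of edgeR over the whole table called 1 of the 10 at a Benjamini-Hochberg threshold of 0.05, miR-582-3p, on the lower side. Over all tested miRNAs 7.1% were called, 2.71% on the lower side. Groups did not overlap for 1 of the 10, again miR-582-3p, and for 7.52% of all miRNAs (pMCAO below in 3.34%, above in 4.18%). Nothing is read from these counts, since the list was drawn up with the same contrast known. In bulk tissue, fewer cells of a type and less of a miRNA per cell cannot be told apart.

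**Figure D2:**
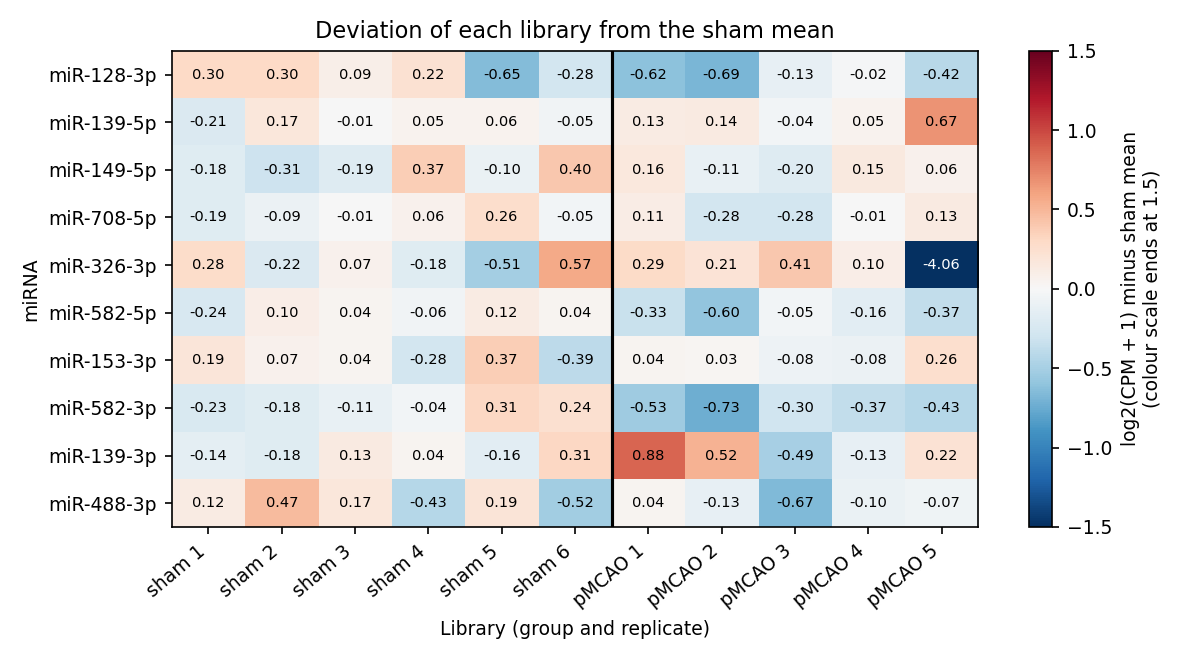
Deviation of every library (columns, 6 sham left of the line and 5 pMCAO right of it) from the sham mean for each miRNA (rows), as log2(CPM + 1); the colour scale ends at 1.5 and each cell prints its value. All 5 pMCAO cells of miR-582-3p and of miR-582-5p are below 0, and miR-326-3p in pMCAO replicate 5 is the lowest cell at -4.06.

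Both arms of the Pde4d hairpin were lower on average in pMCAO tissue. In sham libraries miR-582-3p lay between 218 and 317 CPM with a median of 243. The pMCAO libraries held 177, 154, 207, 197 and 190 CPM in replicates 1 to 5. Every pMCAO library was below every sham library, the closest being replicate 3 at 207 CPM against the lowest sham library at 218 CPM. The means were 258 ± 41.4 CPM and 185 ± 20.7 CPM, a log2FC of -0.48 with an SE of 0.13, or 0.718 of the sham level.

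The call for miR-582-3p was not firm. When each of the 11 libraries was dropped once, it held in 2 fits, those without sham replicate 1 and without pMCAO replicate 3. Over the whole table these 2 fits called 33 and 36 miRNAs, and the other fits called 16 to 34. The direction for miR-582-3p was the same in all 11, with log2FC values from -0.52 to -0.39. It was also called by DESeq2 (-0.48), which called 9.39% of all 479 miRNAs. It was not called with total counts alone as the scaling (-0.32), nor after thinning every library to the smallest total (-0.45). Total counts alone called 44 miRNAs over the whole table, and thinning 19.

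The more abundant arm, miR-582-5p, ran from 639 to 821 CPM in sham with a median of 775. In pMCAO it was at 600, 499, 731, 677 and 583 CPM in replicates 1 to 5. Replicates 3 and 4 lay within the sham range, and replicates 1, 2 and 5 below it. The log2FC was -0.29 (SE 0.12), from 757 ± 66.6 CPM to 618 ± 89.3 CPM, and it was not called.

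The Pde2a hairpin went the other way on average, within its spread. miR-139-5p, whose seed resembles that of miR-582-5p, ranged from 6409 to 8360 CPM in sham with a median of 7541. The pMCAO libraries held 8108, 8204, 7223 and 7712 CPM in replicates 1 to 4 and 11846 CPM in replicate 5. The first 4 lay inside the sham range, and replicate 5 above it. The log2FC of 0.21 (SE 0.13) became 0.08 without replicate 5. Its other arm, miR-139-3p, lay between 70.8 and 100.2 CPM in sham with a median of 77.7. In pMCAO it was at 148, 116, 56.8, 73.6 and 93.9 CPM, so that it spread more than in sham (coefficients of variation 36.8 and 14.3%), and the log2FC of 0.26 (SE 0.22) became 0.05 without replicate 1. The highest pMCAO library was not the same for the arms, replicate 1 for 3p and replicate 5 for 5p. The lowest was replicate 3 for both.

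For miR-153-3p, from the Ptprn2 intron, the group means nearly coincided. Sham libraries ran from 429 to 728 CPM with a median of 583, and pMCAO libraries held 577, 575, 533, 530 and 671 CPM. All 5 lay inside the sham range, and the log2FC was 0.02 (SE 0.14). Leaving out 1 library at a time gave values from -0.05 to 0.11.

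miR-128-3p, the most abundant of the 10, had a lower mean in pMCAO tissue with overlap. Sham libraries ran from 53426 to 103720 CPM with a median of 93908, whereas pMCAO libraries held 54823, 52061, 76826, 83105 and 62809 CPM. The 4 highest libraries were all sham, but sham replicate 5 at 53426 CPM was below 4 of the 5 pMCAO libraries. The log2FC was -0.39 (SE 0.18), and it was not called. It ranged from -0.49 without sham replicate 5 to -0.28 without pMCAO replicate 2.

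For miR-326-3p, from the Arrb1 intron, the comparison turned on 1 library. Sham libraries ran from 1295 to 2736 CPM with a median of 1781. Replicates 1 to 4 of pMCAO held 2251, 2140, 2444 and 1984 CPM, all within the sham range, while replicate 5 held 110 CPM from 170 counts. The log2FC was -0.09 with an SE of 0.49, and it was 0.22 without replicate 5. Against the median of the other pMCAO libraries, the level in replicate 5 was lower by 4.31 on the log2 scale, the 2nd lowest of all 479 miRNAs in that library. Of the 98 miRNAs with a mean of at least 1000 CPM, 3 were at least 4-fold below the median of the other pMCAO libraries in replicate 5. The other two, named after their values were seen, were miR-29c-3p at 1774 CPM against 7764 to 12360, and miR-99a-5p at 1287 CPM against 5123 to 7205. The cause was not tested.

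The miRNAs from the hosts of the cell surface differed little. miR-708-5p, from Tenm4, ran from 2008 to 2731 CPM in sham with a median of 2242, whereas pMCAO libraries held 2472, 1885, 1884, 2276 and 2499 CPM. Replicates 2 and 3 were below the sham range and the others inside it, and the log2FC was -0.06 (SE 0.12). miR-149-5p, from Gpc1, ran from 2020 to 3309 CPM with a median of 2278 in sham, and it was at 2799, 2316, 2183, 2769 and 2614 CPM in pMCAO. All 5 lay inside the sham range, with a log2FC of -0.00976 (SE 0.15).

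miR-488-3p, from Astn1, ran from 19.6 to 39.9 CPM in sham with a median of 31.6, from 33 to 80 counts. The pMCAO libraries held 29.2, 26.0, 17.6, 26.6 and 27.2 CPM, from 22 to 42 counts, and only replicate 3 was below the sham range. The log2FC was -0.22 (SE 0.22), and it ran from -0.31 without sham replicate 6 to -0.10 without sham replicate 2. The difference was no larger than its SE.

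**Figure D3:**
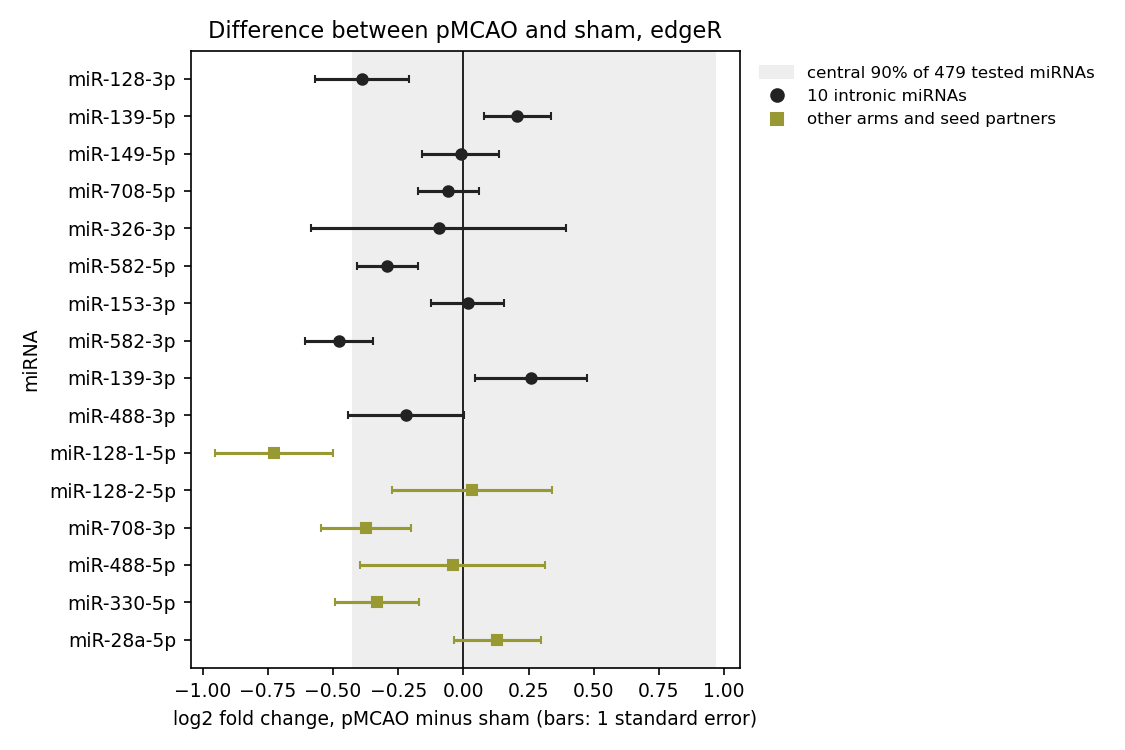
Log2FC of pMCAO against sham from edgeR for the 10 miRNAs (black circles) and for the tested other arms and seed partners (olive squares), with bars of 1 SE; the grey band holds the central 90% of the 479 tested miRNAs, from -0.42 to 0.96. miR-582-3p lies at -0.48 and miR-128-1-5p at -0.73, the widest bar is that of miR-326-3p, and the others lie inside the band.

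The ratio of the arms of 1 hairpin does not depend on the scaling of the libraries and was followed next. Sham libraries held 2.95 times as many counts of miR-582-5p as of miR-582-3p, a log2 ratio of 1.56 ± 0.19, and pMCAO libraries had 1.73 ± 0.08. The difference of 0.17 was smaller than the sham SD and the ranges overlapped. The 5p arm was also the major one for miR-149 (log2 ratio 10.4 ± 0.48 in sham), miR-139 (6.53 ± 0.26) and miR-708 (4.57 ± 0.44). The 3p arm was the major one for miR-128 (-9.83 ± 0.44), miR-153 (-6.76 ± 0.29) and miR-488 (-1.82 ± 0.87). The ranges of sham and pMCAO libraries overlapped for each of the 7 ratios. For miR-149 the pMCAO mean was lower by 0.72, which rests on 1 to 9 counts of miR-149-3p per library and came to -0.35 without pMCAO replicate 3. Counts of miR-326-5p were 4 and 1 in sham replicates 2 and 6 and 0 in the other 9 libraries, so no ratio was taken.

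**Figure D4:**
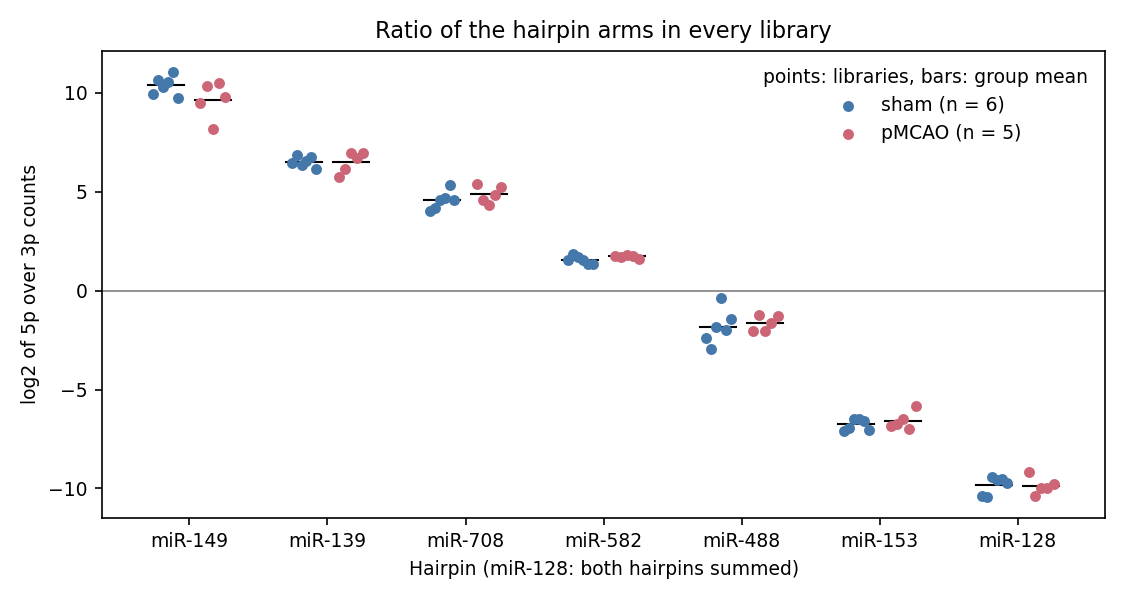
Log2 ratio of 5p over 3p counts (0.5 added to each) for 7 hairpins in every library, with the miR-128 hairpins summed; points are libraries (blue, 6 sham; red, 5 pMCAO), bars are group means, and values above 0 mean more 5p. miR-149 is highest at 10.4 and miR-128 lowest at -9.83 in sham, and sham and pMCAO points overlap for every hairpin.

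Since both miR-128 hairpins give the same 3p sequence, only their 5p arms can be assigned to the hairpin in R3hdm1 or in Arpp21. How far the levels of these 5p arms follow the source of miR-128-3p was not tested. The 5p arms are shown for the bases that differ, and they share the seed GGGGCCG.
miR-128-1-5p: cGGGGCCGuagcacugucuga
miR-128-2-5p: gGGGGCCGaugcacuguaagaga

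The 5p arm of the R3hdm1 hairpin, miR-128-1-5p, was at 41.2 to 86.3 CPM in sham libraries and at 37.1, 26.0, 44.8, 31.9 and 34.95 CPM in pMCAO libraries. Only replicate 3 reached into the sham range, and the log2FC was -0.73 (SE 0.23, edgeR adjusted p = 0.07), which missed the threshold. DESeq2 called it, at -0.73. The 5p arm of the Arpp21 hairpin, miR-128-2-5p, was at 24.8 to 54.7 CPM in sham and at 56.2, 13.01, 30.4, 49.3 and 37.5 CPM in pMCAO libraries. Its log2FC was 0.03 (SE 0.31, edgeR adjusted p = 0.992). The log2 ratio of miR-128-1-5p to miR-128-2-5p, chosen for a test after the values were seen, was 0.66 ± 0.33 in sham and 0.04 ± 0.71 in pMCAO libraries. The difference did not pass an exact permutation test over all 462 arrangements (two-sided, p = 0.0887). Both arms had at most 140 counts in any library.

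Of the 7 other arms, 4 passed the filter and 0 were called by edgeR, although 2 had an unadjusted p under 0.05, and DESeq2 called 1. Over all 479 miRNAs, 117 (24.4%) had an unadjusted p under 0.05 and DESeq2 called 45 (9.39%). The 2 arms were miR-128-1-5p and miR-708-3p, the latter with a log2FC of -0.37 (SE 0.17, edgeR adjusted p = 0.203). Its major arm miR-708-5p had -0.06. The remaining tested arm, miR-488-5p, had -0.04 (SE 0.35) at 5 to 26 counts per library. miR-153-5p, with 4 to 18 counts, and miR-149-3p and miR-326-5p did not pass.

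The seed partners were read for whether they moved with the miRNA that shares their seed. miR-330-5p lay at 277 to 426 CPM in sham and at 238, 245, 341, 302 and 181 CPM in pMCAO libraries, with a log2FC of -0.33 (SE 0.16, edgeR adjusted p = 0.229), or -0.21 without replicate 5. In replicate 5, where miR-326-3p was at 110 CPM, miR-330-5p was also the lowest of its group. Other libraries went the other way. In sham replicate 6, miR-326-3p was the highest of all libraries at 2736 CPM, and miR-330-5p was the lowest of the sham group at 277 CPM. In pMCAO replicates 1 and 2, miR-330-5p was below its sham range, while miR-326-3p was inside its own. miR-28a-5p was far less abundant than miR-708-5p, at 51.5 ± 6.72 CPM in sham and 56.1 ± 10.8 CPM in pMCAO, with a log2FC of 0.13 (SE 0.17, edgeR adjusted p = 0.722).

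For context, 35 other names of miRNAs in introns of genes that neurons express were examined (hosts Slit2 and Slit3, Grid1, Fgf13, Grm8, Chrm2, Htr2c, Sgcz, Xkr6, Rnf130, Vwa5b2, Klhl3, Tln2, Evl and Eml2). Of these, 27 passed the filter. edgeR called 0 of them and DESeq2 called 0, and 5 of the 27 had an unadjusted p under 0.05, beside 24.4% of all 479 miRNAs. Their median log2FC was 0.02, with 13 of 27 below 0, against -0.08 for the 10 miRNAs. The most abundant were miR-218-5p (Slit2 and Slit3) at 9869 ± 1740 CPM, miR-342-3p (Evl) at 3114 ± 160 CPM and miR-330-3p (Eml2) at 687 ± 129 CPM in sham. Their log2FC values were -0.12, -0.37 and -0.07 with edgeR adjusted p of 0.703, 0.223 and 0.85. The hairpin of miR-330 touches an exon in 1 of the 7 transcripts of Eml2 that span it, as does that of miR-592 in 1 of 5 transcripts of Grm8.

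Among the tested miRNAs outside the list, those that varied most like the mean of the 10 within groups were miR-342-3p (Pearson's r = 0.875), miR-99a-5p (0.791) and miR-676-3p (0.774) over 11 libraries. The Spearman values were 0.70, 0.218 and 0.736. Without pMCAO replicate 5, over 10 libraries, the Pearson values were 0.605, 0.381 and 0.495 and the Spearman values 0.60, -0.04 and 0.648. With miR-326-3p left out of the mean, the Pearson values were -0.45, -0.50 and -0.32. Among the 10 themselves, r ran from -0.91 to 0.73 over 45 pairs, with a median of -0.05. These correlations describe libraries that share depth and scaling, and no p is attached.

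Markers of cell types moved between the groups beside these values. Of 10 neuron-enriched miRNAs outside the list, 1 was lower in pMCAO by edgeR, miR-132-3p (log2FC -0.43, SE 0.12, edgeR adjusted p = 0.0412), and 9 did not pass. Over all 479 miRNAs, 7.1% were called, 2.71% on the lower side. The most abundant of the 10, miR-124-3p, had -0.32 (SE 0.09, edgeR adjusted p = 0.0523). Every pMCAO library was below every sham library for it, as for 3.34% of all 479 miRNAs. The median log2FC of the neuron-enriched miRNAs was -0.16, with 7 of 10 below 0. They summed to 277390 to 336990 CPM in sham and 242990 to 291570 CPM in pMCAO libraries. Of 6 leukocyte miRNAs, 5 rose, beside 4.38% of all 479 miRNAs called on the higher side. Among the 5 were miR-223-3p with a log2FC of 2.31 (SE 0.43, edgeR adjusted p = 0.00544) and miR-155-5p with 2.79 (SE 0.46, edgeR adjusted p = 0.00212). miR-155-5p had only 3 to 9 counts per library in sham and 13 to 53 in pMCAO. The others that rose were miR-142a-3p with 1.54, miR-142a-5p with 1.46 and miR-146a-5p with 1.05. The most abundant, miR-150-5p, at 2735 ± 474 CPM in sham, had -0.25 and did not pass. The 6 summed to 2464 to 3788 CPM in sham and 3286 to 6649 CPM in pMCAO libraries.

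Of 4 tested oligodendrocyte miRNAs, 1 fell, beside 2.71% of all 479 miRNAs called on the lower side. It was miR-338-3p (log2FC -0.54, SE 0.15, edgeR adjusted p = 0.0453), with overlapping groups. miR-219b-5p had at most 1 count. The list summed to 4539 to 5475 CPM in sham and 2743 to 5238 CPM in pMCAO libraries. Neither of the endothelial miRNAs miR-126a-3p and miR-126a-5p was called, at 9192 to 13016 CPM in sham and 9518 to 13653 CPM in pMCAO libraries summed. The 5 erythrocyte miRNAs, mostly miR-451a, summed to 49.2 to 5375 CPM in sham and 640 to 4735 CPM in pMCAO libraries, the highest being sham replicate 1. The part of these shifts in the levels of the 10 miRNAs was not tested.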

How the data were processed

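The deposited values are raw counts of reads per mature miRNA name, 1 table per library. The authors removed adapters and barcodes with Torrent Suite 5.0.2, checked reads with FastQC, kept those of 20 to 30 bp, mapped them to mm10 with Bowtie and counted them on miRBase 21 with HTSeq; the settings, and how reads matching several hairpins were assigned, are not given in the sources used here. The library totals cover miRNA names alone.

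Libraries were grouped by their labels. pMCAO was compared with sham in edgeR 4.0.16 under R 4.3.3 (filterByExpr with minimum count 10 and minimum total 15, TMM, glmQLFit and glmQLFTest, no covariates), and p-values were adjusted by the Benjamini-Hochberg method with 0.05 as the threshold. The SE was taken as log2FC over the square root of the F statistic. No label names the mouse behind a library, and the edgeR p-values set the group difference against the variation between libraries. DESeq2 1.42.0 was an alternative. The fit was first tested on simulated data. Arm ratios used 0.5 added counts. Reads carry no molecular identifiers, so counting precision is not corrected for PCR copies.

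The members and lists were chosen with earlier results of these data known. Named miRNAs were the 10, their other arms, all that share a seed with them, the called and the 3 most abundant of the other intronic list, the called and the most abundant of each cell type list, and the 3 most correlated. Sequences and hairpin positions came from RefSeq on GRCm38.p6, host genes from GENCODE vM21, which also gave the hairpins that the RefSeq table lacked. Alternatives were other normalizations, DESeq2, a robust fit, other filters and thresholds, thinning to equal totals, the replicate number as a block, and 11 fits that each lacked 1 library.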

Additional observations from a re-analysis of the deposited data

Results flagged for a closer look

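A single library lay far from the rest of its group in 4 of the 52 sets of values examined (about 2.6 would by chance). The log2(CPM + 1) of miR-326-3p in pMCAO replicate 5 was 6.79, against 10.95 to 11.26 in the other pMCAO libraries, and that of miR-139-5p in the same library was 13.5 against 12.82 to 13. In pMCAO replicate 3, miR-488-3p was at 4.22 against 4.76 to 4.92, from 22 counts. In pMCAO replicate 2, miR-28a-5p was at 5.28 against 5.87 to 6.08, from 32 counts. No cause was tested for any of the 4.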

How the results depend on the processing

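edgeR called 1 of the 10 miRNAs, miR-582-3p. DESeq2's size factors, DESeq2, the robust fit and a threshold of 0.1 gave 1 as well. Over the whole table the main fit called 34 miRNAs, and these alternatives called 33, 45, 36 and 57. Upper-quartile scaling, TMMwsp, total counts alone, no filter, at least 10 counts in every library, thinning, a threshold of 0.01, the replicate block, and replicates 1 to 5 without the block (added after seeing the data) each gave 0, as did leaving out any of 9 libraries (range 0 to 1); the cause was not tested. Same-numbered sham and pMCAO libraries share only a number, and their deviations from the group means correlated between -0.08 and 0.23, with 1 of 5 pMCAO libraries closest to its own number. The log2 fold change of miR-582-3p stayed between -0.52 and -0.32.

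Small differences changed sign. Total counts alone, which raised the median of all miRNAs to 0.18, gave 0.15 for miR-149-5p, 0.0586 for miR-326-3p and 0.11 for miR-708-5p, none above that median. miR-149-5p was also at 0.0144 with upper-quartile scaling, 0.000939 with TMMwsp, 0.0271 with at least 10 counts in every library, 0.0259 after thinning, 0.10 with the replicate block and 0.0823 in replicates 1 to 5 without it. miR-153-3p was at -0.0204 without a filter, -0.0402 with the block and -0.05 in replicates 1 to 5 without it, where miR-326-3p was at 0.042. With 1 library left out, miR-149-5p ran from -0.0577 to 0.0823, miR-153-3p from -0.05 to 0.11, miR-326-3p from -0.23 to 0.22 and miR-708-5p from -0.112 to 0.0251.

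Of the other arms and other intronic miRNAs, edgeR called 0. DESeq2 called 1 (miR-128-1-5p), the replicate block 1 (miR-1298-5p), a threshold of 0.1 gave 1, and the fits without 1 library 0 to 1. Over the whole table these called 45, 19, 57 and 16 to 36. The number of sham neighbours in fixed order was 6 under another pseudocount and 6 to 7 without 1 library. With fewer than 10 counts of miR-149-3p and miR-326-5p per library, depth limits what can be said of these arms.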

Other observations

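Among the other intronic miRNAs, those of the serotonin receptor gene Htr2c were singled out after their values were seen. Its introns hold 4 hairpins (miR-764, miR-1264, miR-1298 and miR-448) with 8 names in the table, of which 7 passed the filter. All 7 had a log2 fold change above 0, from 0.55 for miR-764-3p to 1.30 for miR-1264-5p, with a median of 0.78 against 0.00147 for all 479 miRNAs. Of all 479, 49.7% lay below 0. The value of miR-1264-5p (SE 0.61) rests on 2 to 10 counts per library in sham and 0 to 11 in pMCAO. edgeR called 0 of the 7 and DESeq2 called 0 of 7, and 3 had an unadjusted p under 0.05, beside 117 of all 479 miRNAs (24.4%). Of the alternatives, the fit with the replicate block called miR-1298-5p (0.92) and the fit without pMCAO replicate 3 called miR-1264-5p (1.64). Over the whole table these fits called 19 and 36 miRNAs. The 8 names summed to 168, 106, 95.7, 73.3, 212 and 151 CPM in sham replicates 1 to 6 and to 299, 251, 91.2, 188 and 264 CPM in pMCAO replicates 1 to 5. The groups overlapped, with pMCAO replicate 3 below 5 of the 6 sham libraries. The 7 names share 1 host gene and are not independent of each other.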
